A study of Mus musculus with 2 samples.

Results

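The cytosolic ribosomal protein genes are the 83 of 31920 rows of the expression table whose symbol has the form of a subunit gene (Rpl or Rps with a number and at most a short suffix) or is Rpsa, Rplp0, Rplp1 or Rplp2. Rows named as pseudogenes with -ps were left out. Of the members, 50 belong to the large and 33 to the small subunit. The series studies cardiomyopathy from loss of LAMP2, a lysosomal membrane protein needed for autophagy, in the mouse heart. PolyA RNA of the cardiac left ventricle was sequenced from male 129-SvEv mice aged 10 weeks. The group labelled Lamp2 knockout, whose column is named HEMI, held 1 library, and the wildtype group held 1 library. Neither the promoter or allele behind the knockout nor whether animals were pooled is given in the labels.

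A ribosome has a small subunit, which reads the mRNA, and a large subunit, which joins amino acids and lets the growing chain out through a tunnel. Each holds ribosomal RNA and, as a rule, a single copy of each of its proteins, so the genes are broadly co-expressed. Many of their mRNAs start with a run of pyrimidines, the TOP (terminal oligopyrimidine) motif, through which the kinase complex mTORC1 controls their translation. Striated muscle is known for replacing the large-subunit protein Rpl3 with its paralogue Rpl3l after birth. Ribosomes are also cargo of autophagy, which delivers them to lysosomes for breakdown.

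Depth was 8773820 gene-assigned reads for the knockout label and 8410593 for wildtype. Lamp2 itself had 986 reads in the knockout-labelled library, against 990 in the wildtype library, a ratio of 0.955 with a counting interval of 0.873 to 1.04, so its read count does not check the label. Cardiomyocyte markers (8 of 8 measured) summed to 50062 RPM (reads in 1000000 assigned reads) in the knockout-labelled and 51936 RPM in the wildtype library. Of the 8, 3 were higher and 5 lower in the knockout-labelled library, with ratios from 0.595 for Pln to 1.42 for Ryr2. Macrophage markers, 5 of 7 measured, summed to 314 RPM in the knockout-labelled and 157 RPM in the wildtype library, and 4 of the 5 exceeded 1.5-fold. Of the macrophage markers not measured, Emr1 had 24 reads in the knockout-labelled and 8 in the wildtype library. Fcgr1 went the other way, with 0 reads in the knockout-labelled and 9 in the wildtype library (interval of the ratio 0 to 0.486). Of the fibroblast markers, 7 of 7 were measured, summing to 491 RPM in the knockout-labelled and 555 RPM in the wildtype library. Most of these sums came from Dcn, with 393 RPM in the knockout-labelled and 379 RPM in the wildtype library (ratio 1.04). The other 6 were lower in the knockout-labelled library, with ratios of 0.175 for Col3a1, 0.228 for Col1a1 and 0.192 for Lum. By 1.5-fold or more, 4 were lower, beside 7.3% of all measured genes. Of these 4, Lum and Tcf21 reached 5 RPM only in the wildtype library. Lymphocyte markers summed to 0.456 RPM in the knockout-labelled and 0.476 RPM in the wildtype library, with Cd3d and Ms4a1 listed at 0 in both. Summed endothelial markers were 575 RPM in the knockout-labelled and 558 RPM in the wildtype library, and skeletal muscle markers 37.7 RPM in both. Of the 6 endothelial markers, 3 were higher and 3 lower in the knockout-labelled library, with ratios from 0.744 for Egfl7 to 1.42 for Tie1. In the knockout-labelled library smooth muscle markers summed to 107, erythroid markers to 177 and adipocyte markers to 1.14 RPM, against 138, 197 and 5.11 RPM in the wildtype library, with Lep listed at 0 in both. Among 4 atrial markers only Nppa, also a gene of cardiac stress, was measured, with 10987 RPM in the knockout-labelled and 2868 RPM in the wildtype library. The other 3 had fewer reads in the knockout-labelled library, Myl7 with 4 against 19 in the wildtype library (ratio 0.202, interval 0.0499 to 0.607), Sln with 1 against 5 and Myl4 with 12 against 18, the intervals of Sln and Myl4 including 1. Transcripts of the mitochondrial chromosome took 16.2% of reads in the knockout-labelled and 26.5% in the wildtype library. RPM are shares of all reads, so this difference moves the RPM of every other gene; the part of it, and of the macrophage signal, in the results was not tested. In whole tissue, more cells of a type and more RNA per cell cannot be told apart.

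The starts of 10 members are shown because their letters bear on the TOP motif and because the results turn on these genes. Each line gives 30 bases 5′ to 3′ on the coding strand from RefSeq on GRCm38.p6, the 15 before the annotated start and the 15 from it onward. Capitals mark the run of C and T that covers the start base or begins within 2 bases after it. The first 7 have a run of 5 or more, and the last 3 a shorter run or none.
Rplp2 (chr7:141447636-141447665, plus strand): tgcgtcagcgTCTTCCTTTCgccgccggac
Rpl13a (chr7:45128731-45128760, minus strand): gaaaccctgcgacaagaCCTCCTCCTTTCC
Rpl38 (chr11:114668565-114668594, plus strand): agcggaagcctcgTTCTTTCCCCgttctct
Rps9 (chr7:3704026-3704055, plus strand): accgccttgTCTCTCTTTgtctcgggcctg
Rps21 (chr2:180257364-180257393, plus strand): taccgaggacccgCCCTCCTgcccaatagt
Rps6 (chr4:86857353-86857382, minus strand): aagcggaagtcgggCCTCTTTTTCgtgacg
Rps27l (chr9:66946071-66946100, plus strand): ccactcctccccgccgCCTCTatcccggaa
Rps2 (chr17:24720048-24720077, plus strand): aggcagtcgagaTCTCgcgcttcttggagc
Rpl3l (chr17:24727811-24727840, plus strand): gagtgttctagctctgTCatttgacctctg
Rpl4 (chr9:64173372-64173401, plus strand): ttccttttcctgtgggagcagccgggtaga

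Of 63 members with an entry in the RefSeq promoter table, 24 (38.1%) had such a run of at least 5, against 4218 of 27025 promoters, 1 per gene, over the whole table (15.6%). For members the annotated start nearest to the start of the row was taken, and for the whole table the first listed start of each gene. The shares thus rest on unlike choices of start. The motif was any unbroken run of C and T read on the coding strand only. In Rpl4 a longer run lies before the annotated start and ends too early to be counted. The 18 measured members with a run had a median log2 ratio of 0.60 and a range of -0.35 to 0.94. The 25 measured members without such a run had a median of 0.42 and a range of -0.26 to 1.09. The ranges overlap almost wholly, and Rps2, the member with the highest ratio, has a run of 4 bases. A match in the letters is a description and does not show where transcription starts in these hearts.

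Ribosomal protein transcripts took a larger share of reads in the knockout-labelled library. All 83 members together had 74775 reads there, 0.852% of the total (exact binomial 95% interval 0.846 to 0.858), against 48103 reads in the wildtype library, 0.572% (0.567 to 0.577). These and all later intervals cover counting error only, since each group has 1 library and no molecular identifiers are named in the labels. Without Rplp2, the member with the most reads, the shares were 0.658% in the knockout-labelled and 0.462% in the wildtype library. With mitochondrial transcripts taken out of the total they were 1.02% in the knockout-labelled and 0.778% in the wildtype library. The share was 1.49 times that of the wildtype library on all reads and 1.31 times without the mitochondrial transcripts.

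A member was counted as measured when it reached 5 RPM in the library where it was higher, which 58 of 83 did, 32 of the large and 26 of the small subunit. Log2 ratios are log2((knockout-labelled RPM + 1)/(wildtype RPM + 1)), which understates differences of low genes. The median over the 58 was 0.48, with quartiles of 0.24 and 0.65 and a range of -0.35 to 1.09, beside a median of 0.11 over all 10209 measured genes. The ratio was above 0 on the log2 scale for 52 of the 58, beside 61.2% of all measured genes. At least 1.5-fold higher were 18 of the 58, beside 12.8% of all genes, and at least 1.5-fold lower were 0, beside 7.3%. Among the 18, Rpl12, Rpl35, Rpl36 and Rps18 reached 5 RPM only in the knockout-labelled library, so the minimum admitted them through the library where they are high. With a minimum of 20 RPM, 12 of 35 members were at least 1.5-fold higher, beside 14.0% of all genes. Rps2 alone passed 2-fold higher (3.35% of all genes) and 0 members were 2-fold lower (2.37%). The counting interval of the RPM ratio lay above 1 for 42 members, beside 35.0% of all genes, below 1 for 0 members, beside 16.8%, and included 1 for 16. No p-value is given, because 1 library in each group leaves no spread between animals to test against.

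**Figure D1:**
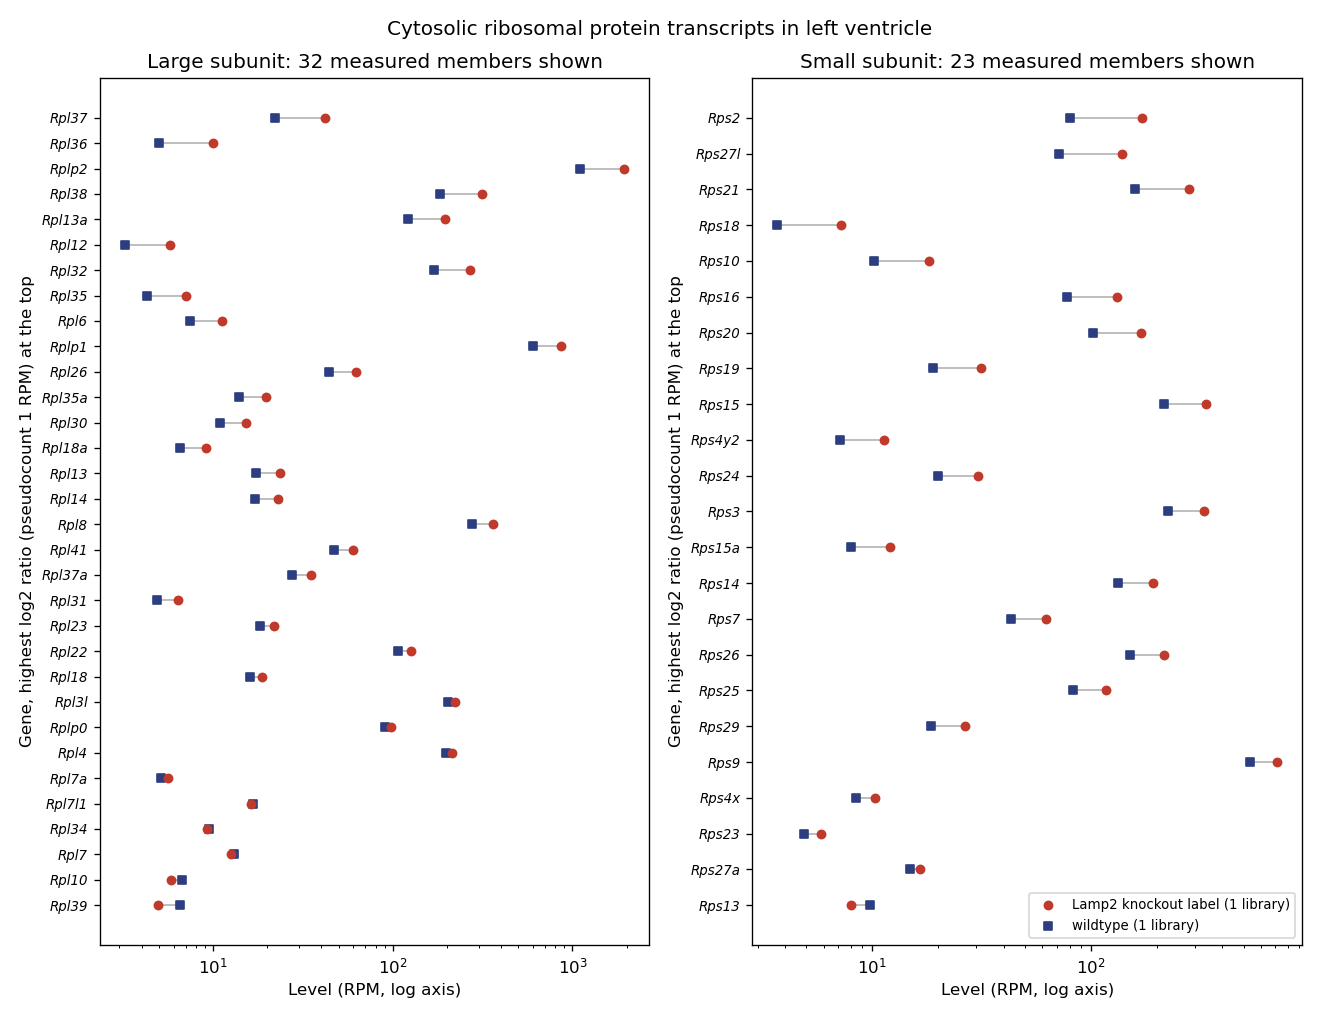
Levels of 55 of the 58 measured members in RPM on a log axis, large subunit on the left and small subunit on the right, with the knockout-labelled library as red circles and the wildtype library as blue squares (1 library each), ordered by log2 ratio. The red circle lies to the right of the blue square for 49 of the 55 genes shown, and the levels run between the 1947 RPM of Rplp2 in the knockout-labelled library and the 3.21 RPM of Rpl12 in the wildtype library.

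The difference was of like size in abundant members and less regular in scarce ones. Among the 26 members with a mean of 50 RPM or more, a split chosen after the data were seen, none of the 26 lay below a log2 ratio of 0, and their median was 0.52. All 2636 genes of the table at that level had a median of 0.19, and 70.5% of them lay above 0. Among the 32 measured members below 50 RPM the median was 0.41, and 6 were below 0. Of all measured genes below 50 RPM, 58.0% lay above 0. Transcript length moved with the ratio across the table. Genes with a transcript of at most 1000 nt had a median log2 ratio of 0.29 (557 genes, 20.1% at least 1.5-fold higher), and longer ones 0.10. The 40 measured members of at most 1000 nt had a median of 0.49, with 14 at least 1.5-fold higher, and the 18 longer members 0.41. After a correction for length and GC content fitted over all measured genes, the median over the members was 0.30, beside 0.11 for all genes.

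Within the large subunit the stalk genes carried the most reads. Rplp0, Rplp1 and Rplp2 encode the lateral stalk, the flexible arm that recruits elongation factors. They took 34.1% of all ribosomal protein reads in the knockout-labelled and 31.3% in the wildtype library. Rplp2 had 17087 reads (1947 RPM) in the knockout-labelled library and 9236 reads (1098 RPM) in the wildtype library, a ratio of 1.77 (1.73 to 1.82). Rplp1, its partner in the stalk dimer, had 858 RPM in the knockout-labelled and 600 RPM in the wildtype library, a ratio of 1.43 (1.38 to 1.48). Rplp0, the anchor of the stalk, had 97.7 RPM in the knockout-labelled and 90.0 RPM in the wildtype library, a ratio of 1.09 whose interval (0.983 to 1.20) included 1. The 3 stalk genes thus differed from each other, and their counting intervals did not overlap. Per kb of transcript, Rplp2 stood at 2020 RPM and Rplp1 at 1720 RPM in the knockout-labelled library, and Rplp2 at 1139 RPM and Rplp1 at 1203 RPM in the wildtype library. Their order on this scale thus differed between the libraries. Counted over positions not shared with another gene, Rplp1 stood above Rplp2 in both libraries. The order in the knockout-labelled library therefore rests on the positions counted. Rplp0 was far below both, at 71.9 RPM per kb in the knockout-labelled and 66.3 in the wildtype library.

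The other large-subunit genes with many reads were mostly higher under the knockout label too. Rpl8, which lies next to the site of peptide bond formation, had 363 RPM in the knockout-labelled and 277 RPM in the wildtype library, a ratio of 1.31 (1.24 to 1.38). Rpl38, known from mouse embryos for its role in translating Hox mRNAs, had 315 RPM in the knockout-labelled and 184 RPM in the wildtype library, a ratio of 1.71 (1.61 to 1.82). Rpl32 had 269 RPM in the knockout-labelled and 170 RPM in the wildtype library, a ratio of 1.58. The Rpl32 row overlaps Cand2 on the opposite strand, and Cand2 went the other way with 802 reads in the knockout-labelled and 1023 in the wildtype library. Rpl4, which lines the exit tunnel, stood apart from these with 213 RPM in the knockout-labelled and 197 RPM in the wildtype library, a ratio of 1.08 (1.01 to 1.15).

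The 5 large-subunit members with the highest log2 ratios were Rpl37, Rpl36, Rplp2, Rpl38 and Rpl13a. Rpl37 had 41.7 RPM in the knockout-labelled and 22.1 RPM in the wildtype library, a ratio of 1.89 (1.58 to 2.26). Rpl36 rested on 87 reads in the knockout-labelled and 42 in the wildtype library, so its ratio of 1.99 has a wide interval of 1.36 to 2.94. Rpl13a, known from human monocytes for leaving the ribosome to silence inflammatory mRNAs, had 196 RPM in the knockout-labelled and 122 RPM in the wildtype library, a ratio of 1.60 (1.48 to 1.74). At the other end, the 5 lowest were Rpl39, Rpl10, Rpl7, Rpl34 and Rpl7l1. Rpl39, a small protein of the exit tunnel, had 4.90 RPM in the knockout-labelled and 6.54 RPM in the wildtype library, a ratio of 0.749 (0.491 to 1.14). Rpl10, which completes the large subunit late in its assembly, had 5.81 RPM in the knockout-labelled and 6.66 RPM in the wildtype library, a ratio of 0.873 (0.585 to 1.30). The intervals of Rpl7 (ratio 0.967), Rpl34 (0.971) and Rpl7l1 (0.979) included 1 as well, so none of the 5 was lower in the knockout-labelled library beyond counting error.

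In the small subunit 25 of 26 measured members had a log2 ratio above 0. Rps2, which sits where mRNA enters the ribosome, had 1510 reads (172 RPM) in the knockout-labelled library and 677 reads (80.5 RPM) in the wildtype library. Its ratio of 2.14 (1.95 to 2.34) was the highest of all measured members. Of the Rps2 transcript, 79.0% of positions lie in a 50-base stretch that also occurs in another gene, in 71 other genes in all. Rps27l, a paralogue of Rps27 known as a target of p53, had 139 RPM in the knockout-labelled and 71.8 RPM in the wildtype library, a ratio of 1.93 (1.75 to 2.14). Rps21 had 281 RPM in the knockout-labelled and 160 RPM in the wildtype library, a ratio of 1.76 (1.64 to 1.88). Rps18, at the top of the subunit's head, had only 63 reads in the knockout-labelled and 31 in the wildtype library, and its ratio of 1.95 spans 1.25 to 3.10. Rps10, a protein of the mRNA entry site, had 18.2 RPM in the knockout-labelled and 10.2 RPM in the wildtype library, a ratio of 1.78 (1.36 to 2.35).

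Among the most abundant small-subunit genes by reads were Rps9, Rps3, Rps15 and Rps21. Rps9, which helps keep decoding accurate, had 712 RPM in the knockout-labelled and 537 RPM in the wildtype library, a ratio of 1.33 (1.28 to 1.38). Rps3, at the mRNA entry channel and also active in DNA repair, had 329 RPM in the knockout-labelled and 225 RPM in the wildtype library, a ratio of 1.46 (1.38 to 1.55). Rps15 had 336 RPM in the knockout-labelled and 217 RPM in the wildtype library, a ratio of 1.55. The counting intervals of these 4 lie above 1. Among those with the lowest log2 ratios, Rps13 was the only member below 0, with 7.98 RPM in the knockout-labelled and 9.75 RPM in the wildtype library (ratio 0.818, interval 0.586 to 1.14). Rps27a, made as a fusion with ubiquitin, had a ratio of 1.10, Rps23 of the decoding centre 1.19 and Rps4x, encoded on the X chromosome, 1.22. Each of these intervals included 1.

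**Figure D2:**
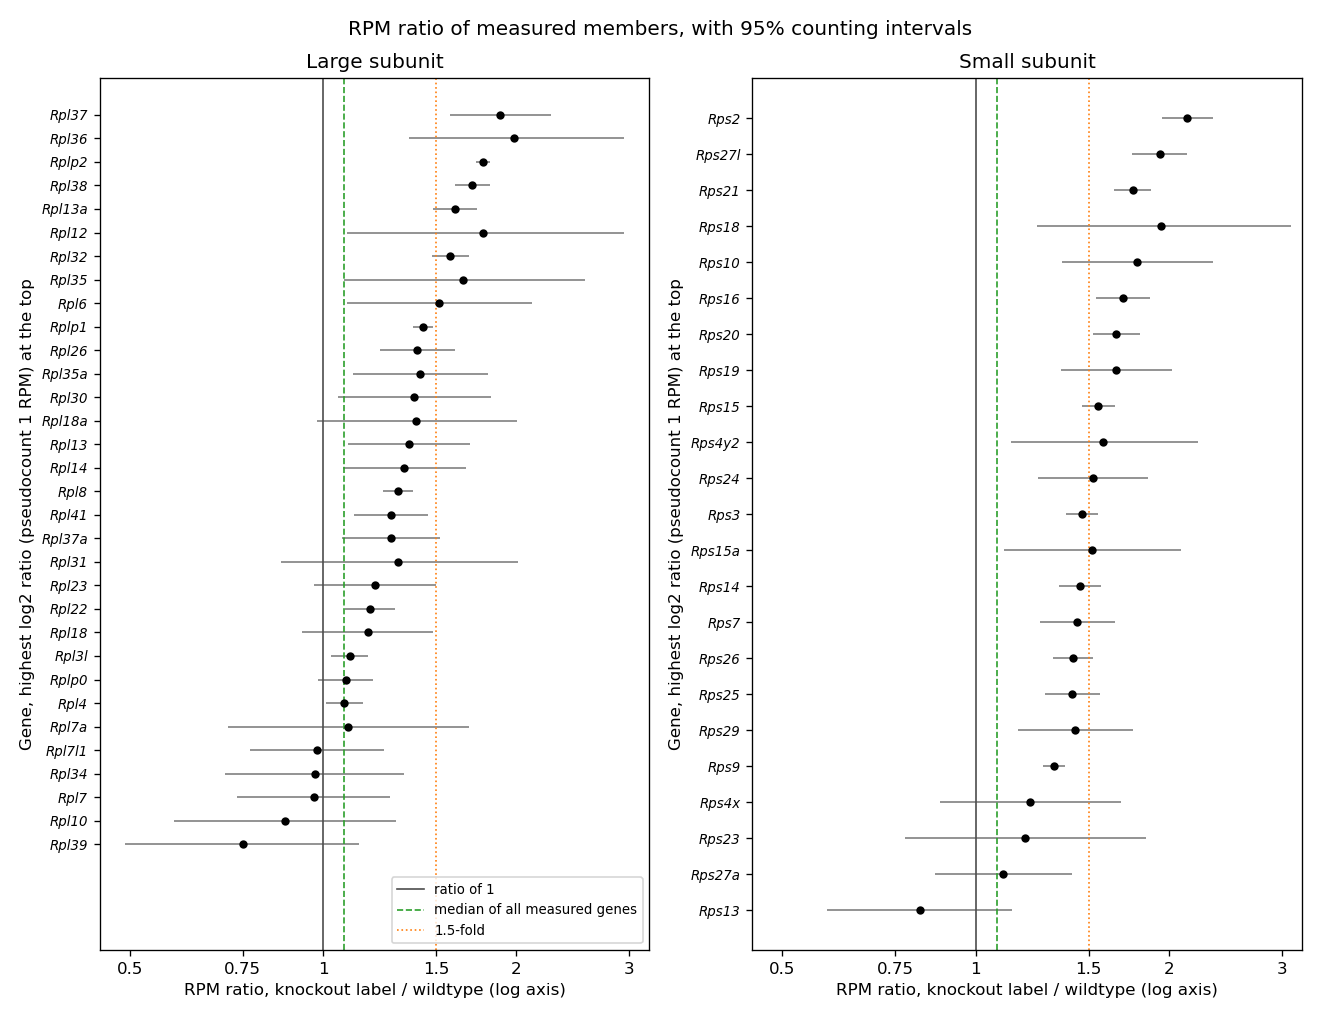
RPM ratio of the knockout-labelled over the wildtype library for 55 of the 58 measured members (points) with 95% exact conditional binomial intervals (bars, counting error only) on a log axis, large subunit left and small subunit right. The solid line marks a ratio of 1, the dashed line the median of all measured genes and the dotted line 1.5-fold. Bars of 40 genes shown lie wholly above 1 and 0 lie wholly below it.

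The subunits differed in their medians and, with Rplp2 counted, not in their sums. The 32 measured large-subunit members had a median log2 ratio of 0.39 and the 26 small-subunit members 0.54, a difference of -0.15. At least 1.5-fold higher were 8 of 32 large-subunit and 10 of 26 small-subunit members, beside 12.8% of all genes. The summed level of the large subunit was 5030 RPM in the knockout-labelled and 3370 RPM in the wildtype library, a ratio of 1.49. That of the small subunit was 3438 RPM in the knockout-labelled and 2303 RPM in the wildtype library, also a ratio of 1.49. Large-subunit genes held 59.5% of all ribosomal protein reads in the knockout-labelled library (59.1 to 59.8) and 59.6% in the wildtype library (59.1 to 60.0). With Rplp2 included, the balance of the subunits in the pool of reads was thus the same within counting error. Rplp2, a large-subunit gene, alone held 22.9% of ribosomal protein reads in the knockout-labelled and 19.2% in the wildtype library. Without Rplp2, large-subunit genes would hold a smaller share in the knockout-labelled than in the wildtype library. The equal sums therefore rest on that gene. Restricted to members with a mean of 50 RPM or more, the medians were 0.43 (12 large-subunit genes) and 0.54 (14 small-subunit genes). The members are not replicates of a condition, so the difference of medians has no test.

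Rpl3l and Rpl3 encode alternative forms of a protein that reaches to the site of peptide bond formation, Rpl3l in striated muscle and Rpl3 elsewhere. Rpl3l (chr17:24727829-24736149) had 1948 reads (222 RPM) in the knockout-labelled library and 1698 reads (202 RPM) in the wildtype library. Its ratio was 1.10 (1.03 to 1.17) and its log2 ratio 0.14, near the 0.11 of all measured genes. Under other scalings the log2 ratio of Rpl3l lay between -0.046 and 0.020, so its direction depends on the scaling. Rpl3 (chr15:80077781-80083406) had 14 reads (1.60 RPM) in the knockout-labelled library and 7 reads (0.832 RPM) in the wildtype library, below the minimum, with a ratio of 1.92 and an interval of 0.724 to 5.61. Snord83b, which overlaps the Rpl3 row on the same strand, had 50 reads in the knockout-labelled and 48 in the wildtype library. Whether any of those reads come from Rpl3 transcripts was not tested. Rpl3l thus ranked 24 of the 32 measured large-subunit members by log2 ratio, and Rpl3 had too few reads to place.

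Of the reads of the pair, Rpl3l held 99.3% in the knockout-labelled library (98.8 to 99.6) and 99.6% in the wildtype library (99.2 to 99.8). In both libraries the reads of the pair were thus mostly those of the muscle form. Levels of the members cannot be read as amounts of mRNA, for the reason given below. The share of the muscle form in the mRNA was therefore not tested. Per kb of transcript Rpl3l stood at 161 RPM in the knockout-labelled and 147 RPM in the wildtype library, and Rpl3 at 1.18 RPM in the knockout-labelled and 0.616 RPM in the wildtype library. The ratio of Rpl3l's ratio to that of Rpl3 was 0.574 with an interval of 0.195 to 1.52, so a shift between the forms was not detectable at this depth. Of the Rpl3 transcript, 85.6% of positions lie in 50-base stretches found in 26 other genes, all of them annotated pseudogenes, while Rpl3l shares 0 such stretches. If only the 188 unshared positions of Rpl3 could collect reads, its level would be 8.49 RPM per kb in the knockout-labelled and 4.43 RPM per kb in the wildtype library. The share of Rpl3l would then be 95.2% in the knockout-labelled and 97.2% in the wildtype library. That calculation was added after the data were seen. The same switch in muscle is known for the elongation factors Eef1a2 (muscle and neurons) and Eef1a1 (other cells). Eef1a2 had 1410 RPM in the knockout-labelled and 1241 RPM in the wildtype library, a ratio of 1.14 (1.11 to 1.17). Eef1a1 had 86.2 RPM in the knockout-labelled and 64.7 RPM in the wildtype library, a ratio of 1.33 (1.19 to 1.49).

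**Figure D3:**
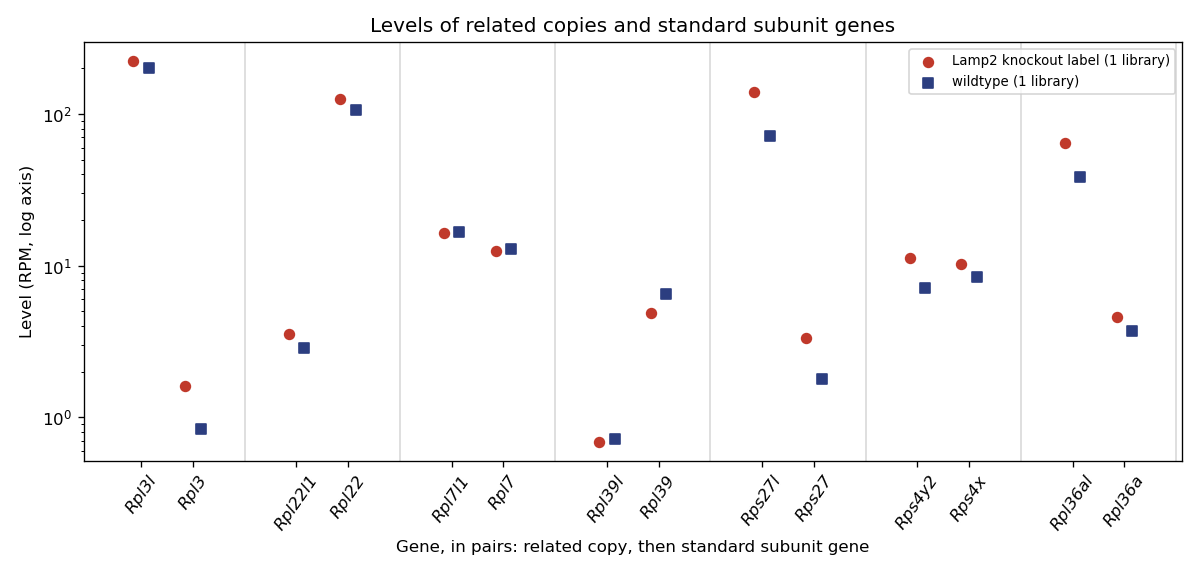
Levels in RPM (log axis, not per length) of 7 pairs of a related copy and its standard subunit gene, with the knockout-labelled library as red circles and the wildtype library as blue squares (1 library each). Rpl3l lies near 200 RPM in both libraries and Rpl3 near 1 RPM, while Rpl22, a standard form, lies above its copy Rpl22l1.

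Other pairs of related genes were also unevenly covered. Rpl22, an RNA-binding protein of the large subunit, had 126 RPM in the knockout-labelled and 106 RPM in the wildtype library, and its copy Rpl22l1 had 3.53 RPM in the knockout-labelled and 2.85 RPM in the wildtype library. Rps27l is the reverse case, because Rps27 had only 29 reads in the knockout-labelled and 15 in the wildtype library. Of the Rps27 transcript, 98.6% of positions are shared with other genes, against 13.7% for Rps27l. Rpl7l1 had 16.3 RPM and Rpl7 12.5 RPM in the knockout-labelled library, against 16.6 RPM for Rpl7l1 and 13.0 RPM for Rpl7 in the wildtype library. Rpl39l, a copy known from testis, had 6 reads in each library. Rpl36al, a copy of the X-linked Rpl36a that the naming rule does not take, had 64.5 RPM in the knockout-labelled and 38.6 RPM in the wildtype library, while Rpl36a had 4.56 RPM in the knockout-labelled and 3.69 RPM in the wildtype library. Rps4y2 had 11.3 RPM in the knockout-labelled and 7.13 RPM in the wildtype library. RefSeq lists it as Rps4l, a transcribed pseudogene, and it lies within Tmtc1 on the opposite strand, which had 3390 reads in the knockout-labelled and 2340 reads in the wildtype library. For all 7 pairs, Rpl3l and Rpl3 included, the interval of the ratio of ratios included 1, from 0.574 for Rpl3l over Rpl3 to 1.35 for Rpl36al over Rpl36a. Rpl10l, a testis copy of Rpl10, had 0 reads in both libraries, which allows up to 0.342 RPM in the knockout-labelled and 0.357 RPM in the wildtype library.

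The 25 members that stayed under 5 RPM in both libraries include proteins that every ribosome needs. Together they held 0.635% of ribosomal protein reads in the knockout-labelled and 0.815% in the wildtype library. Rps6, the substrate of the S6 kinases downstream of mTORC1, had 12 reads in the knockout-labelled and 6 in the wildtype library. Rpl5 and Rpl11, which bind the p53 regulator MDM2 when ribosome assembly fails, had 22 and 12 reads in the knockout-labelled library and 34 and 19 reads in the wildtype library. Rpsa, also known as the laminin receptor, had 37 reads in the knockout-labelled and 33 in the wildtype library. Rpl9 had 0 reads in the knockout-labelled and 1 read in the wildtype library, and Rpl17 had 3 reads in each. Among the others were Rpl10a, Rpl10l, Rpl15, Rpl19, Rpl21, Rpl22l1, Rpl23a, Rpl24, Rpl27, Rpl27a, Rpl28, Rpl3, Rpl36a, Rpl39l, Rps12, Rps27, Rps28 and Rps3a. Just inside the minimum were Rpl7a (5.58 RPM in the knockout-labelled and 5.11 RPM in the wildtype library), Rpl12 (5.70 RPM in the knockout-labelled and 3.21 RPM in the wildtype library) and Rps23 (5.81 RPM in the knockout-labelled and 4.87 RPM in the wildtype library). Just outside it were Rpl15 (4.22 RPM in the knockout-labelled and 4.87 RPM in the wildtype library), Rpl10a (4.79 RPM in the knockout-labelled and 1.90 RPM in the wildtype library) and Rpl36a, given above.

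These low counts went with shared sequence. Ribosomal protein genes have many processed pseudogenes, and 80 of the 83 members share at least 1 stretch of 50 bases with another annotated gene. The 44 members with at least 50% of positions shared had a median of 6.72 RPM in the knockout-labelled and 4.93 RPM in the wildtype library. The 39 with less had 41.7 RPM in the knockout-labelled and 27.3 RPM in the wildtype library. Of the 25 members under the minimum, 18 had 50% or more shared, and of the 58 measured members 26 did. Across the 83 members, Spearman's rho between RPM per kb and the shared percentage was -0.36 in the knockout-labelled and -0.39 in the wildtype library, a description over genes that share libraries and sequence. How reads that match several places were counted is not given in the sources used here, so levels of the members cannot be read as amounts of mRNA, and the part of this in their order was not tested. Between the log2 ratio and the shared percentage rho was -0.05 over the 58 measured members. The median log2 ratio was 0.49 for the 32 with less than 50% shared and 0.48 for the 26 with more.

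**Figure D4:**
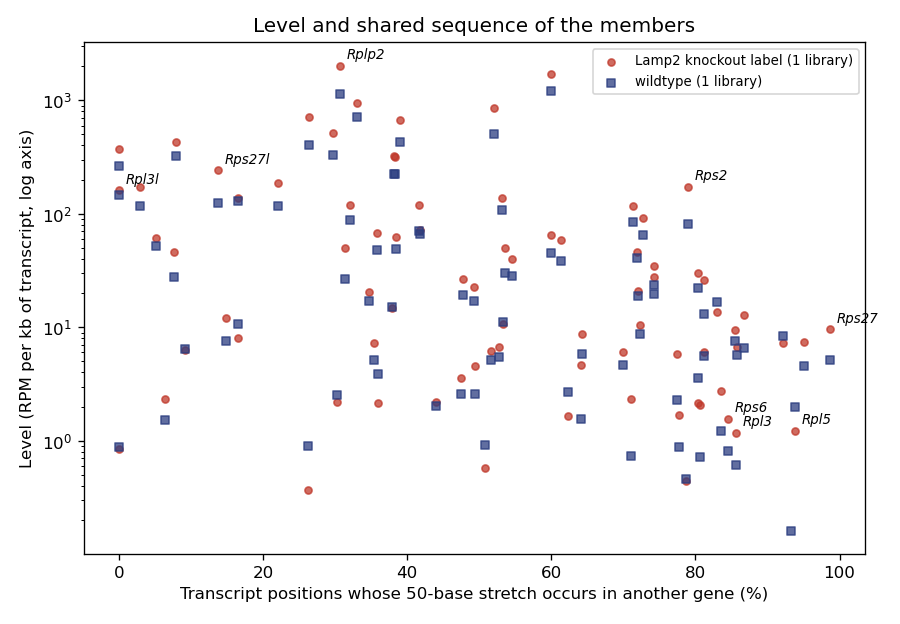
Level in RPM per kb of transcript (log axis) against the percentage of transcript positions whose 50-base stretch occurs in another gene, for the members with reads, with the knockout-labelled library as red circles and the wildtype library as blue squares. Points above 80% shared all lie under 50 RPM per kb, and most points above 200 RPM per kb lie under 50% shared; values of 0 (Rpl10l in both libraries and Rpl9 in the knockout-labelled library) cannot be drawn on a log axis.

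Position in the genome gave no simple grouping. Rps2 and Rpl3l lie 5901 bp apart on chromosome 17 and had log2 ratios of 1.09 and 0.14, the highest of the small subunit and among the lower ones of the large subunit. Snhg9, a host gene of small nucleolar RNAs, lies 97 bp from Rps2 on the opposite strand and had 55.2 RPM in the knockout-labelled and 28.5 RPM in the wildtype library, a ratio of 1.93. The 3 measured X-linked members Rpl39, Rpl10 and Rps4x had a median of -0.17, but they held between 43 and 90 reads in the knockout-labelled library and each interval included 1. For 11 members an overlapping row of another gene held at least 10% as many reads as the member itself. Among them Rpl26, with 543 reads in the knockout-labelled and 371 in the wildtype library, overlaps Gm15772 on the same strand with 505 reads in the knockout-labelled and 357 reads in the wildtype library. Whether both rows hold the same reads was not tested.

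Genes that work with the ribosome were described from lists made with earlier results of these data known. Their counts past 1.5-fold are read beside the 12.8% higher and 7.3% lower of all measured genes. The list of 9 measured genes for elongation factors, Eef2k included, had a median log2 ratio of 0.41 (0.23 to 0.29 under the other scalings), with 1 at least 1.5-fold higher and 0 lower. The 1 gene was Eef2k, the kinase that inhibits Eef2 and no elongation factor itself, so 0 of the elongation factors proper passed. When the total leaves out mitochondrial transcripts and the top 10 genes, Eef2k does not pass either. Eef2k stood at 99.7 RPM in the knockout-labelled and 58.7 RPM in the wildtype library (ratio 1.70, interval 1.52 to 1.90). Eef2 itself, the translocation factor, had 1264 RPM in the knockout-labelled and 1098 RPM in the wildtype library, a ratio of 1.15. The 23 other TOP mRNAs had a median of 0.21 (0.03 to 0.09 under the other scalings), with 4 higher (2 or 3 under the other scalings) and 0 lower. Tpt1, a highly translated TOP mRNA, had 859 RPM in the knockout-labelled and 409 RPM in the wildtype library (ratio 2.10, interval 2.02 to 2.19). Fau, which encodes a ubiquitin-like protein fused to the small-subunit protein Rps30, had 39.8 RPM in the knockout-labelled and 22.9 RPM in the wildtype library, a ratio of 1.73. The 8 measured host genes of small nucleolar RNAs had a median of 0.30 (0.15 to 0.20 under the other scalings), and 2 were at least 1.5-fold higher. These were Snhg9, given above, and Snhg6, with 10.4 RPM in the knockout-labelled and 3.80 RPM in the wildtype library. Snhg6, Snhg1, Snhg12 and Snhg5 reached 5 RPM only in the knockout-labelled library, so the minimum favoured higher ratios here. With a minimum of 20 RPM, 3 host genes remained, with a median of 0.16.

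Assembly factors lay closer to the whole table. The 61 measured ribosome biogenesis genes had a median log2 ratio of 0.16, with 7 higher and 2 lower by 1.5-fold. The 7 are 11.5% of the list, near the 12.8% of all genes. Rrp12, an export factor of both subunits known from yeast, had 91.3 RPM in the knockout-labelled and 42.1 RPM in the wildtype library (ratio 2.17, interval 1.91 to 2.47). Utp20, a component of the small-subunit processome, had 7.86 RPM in the knockout-labelled and 14.5 RPM in the wildtype library, a ratio of 0.542. Ncl, the abundant nucleolar protein nucleolin, had 330 RPM in the knockout-labelled and 362 RPM in the wildtype library, a ratio of 0.911. The 7 dedicated chaperones of ribosomal proteins had a median of 0.19 (0.01 to 0.08 under the other scalings) with 0 past 1.5-fold in either direction. The 74 measured mitochondrial ribosomal protein genes had a median of 0.15, with 3 higher and 1 lower. The 3 are 4.05% of the list, below the 12.8% of all genes. These medians lie close to the 0.11 of all measured genes, and the differences between lists were not tested. Under the other scalings the biogenesis median lay between -0.01 and 0.05 and that of the mitochondrial ribosomal proteins between -0.03 and 0.03, so neither keeps its direction.

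Among 19 regulators of TOP mRNAs the median was 0.10, with 1 higher (5.26% of the list, against 12.8% of all genes) and 0 lower (against 7.3%). The gene past 1.5-fold was Eif4ebp1, an mTORC1 substrate that blocks cap-dependent initiation, with 426 RPM in the knockout-labelled and 209 RPM in the wildtype library (ratio 2.04, interval 1.93 to 2.16). Akt1s1, the mTORC1 inhibitor PRAS40, had 114 RPM in the knockout-labelled and 77.5 RPM in the wildtype library, a ratio of 1.47. The list of 14 genes drawn up for ribosome rescue and ribophagy had a median of 0.17. It had 2 higher (14.3% of the list, near the 12.8% of all genes) and 0 lower (against 7.3%). Of these 2, Nufip1 has such a role and Zfp593 is known for another. Nufip1, a receptor for ribosomes in autophagy, had 11.6 RPM in the knockout-labelled and 4.76 RPM in the wildtype library (ratio 2.44, interval 1.68 to 3.62). Zfp593, known from yeast as an assembly factor of the large subunit, had 18.7 RPM in the knockout-labelled and 7.73 RPM in the wildtype library, a ratio of 2.42 (1.80 to 3.28). Nufip1 and Zfp593 rest on 102 and 164 reads in the knockout-labelled library and 40 and 65 reads in the wildtype library. Nufip1 reached 5 RPM only in the knockout-labelled library, so the minimum admitted it through the library where it is high. With a minimum of 20 RPM, 10 genes of this list remained and 0 were at least 1.5-fold higher, beside 14.0% of all genes. Under the other scalings the median of the TOP regulators lay between -0.08 and -0.02 and that of the rescue and ribophagy genes between -0.0044 and 0.06.

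**Figure D5:**
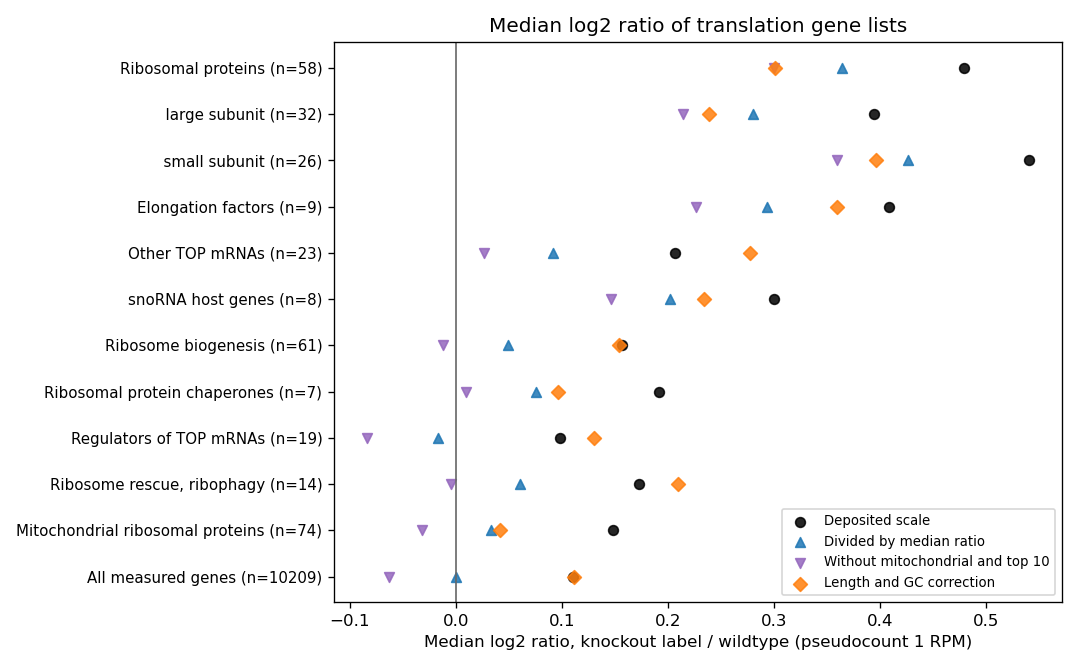
Median log2 ratio of the knockout-labelled over the wildtype library (pseudocount 1 RPM) for the members, their subunits, related gene lists and all measured genes (n measured in brackets), on the deposited scale (black circles), divided by the median ratio (blue triangles), scaled to a total that leaves out mitochondrial transcripts and the top 10 genes (purple triangles), and with the length and GC correction (orange diamonds). The median over the ribosomal proteins is 0.48, 0.36, 0.30 and 0.30 on these scales, and that of all measured genes 0.11, 0.00, -0.06 and 0.11.

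The scaling set how many members passed the fold limits. Dividing by the median ratio of all measured genes moved every log2 ratio of an abundant gene down by 0.12, and scaling to a total that leaves out mitochondrial transcripts and the top 10 genes by 0.18. The median over the members was then 0.36 and 0.30, and 51 and 46 of the 58 stayed above 0, beside 49.99% and 44.0% of all genes. At least 1.5-fold higher were 11 members (9.03% of all genes) on the first of these scales and 9 (7.36%) on the second. With the length and GC correction 8 were (12.1% of all genes). These 8 were Rps2 with a corrected log2 ratio of 0.90, Rps27l with 0.87, Rps20 with 0.86, Rpl37 with 0.79, Rplp2, Rps16 and Rps15a with 0.66 each, and Rps18 with 0.59. The transcripts used for Rps20 (3706 nt) and Rps15a (5179 nt) are the longest of the measured members. The correction raised both, Rps20 from 0.72 and Rps15a from 0.54 on the deposited scale, where Rps15a was not among the 18 members past 1.5-fold. The Rps20 row spans only chr4:3834473-3835600, which is shorter than that transcript. The corrected value, level per kb and shared percentage of Rps20 thus rest on a transcript that does not match its row. Those of Rps15a rest on a transcript far longer than those of its pseudogene rows Rps15a-ps4 (502 nt) and Rps15a-ps6 (393 nt). Whether that transcript matches the reads of Rps15a was not tested. On each of these scales 0 members passed 2-fold. Rpl4 and Rplp0, with log2 ratios of 0.11 and 0.12 on the deposited scale, lie at the size of these shifts, so their direction rests on the scaling as that of Rpl3l does.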

How the data were processed

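The authors sequenced polyA RNA and deposited 1 table of 31920 gene rows. It holds, per the file headers, raw read counts and RPM values equal to the count divided by the library total, times 1000000. The deposited fold (a ratio) and the authors' p-value in it were not used. STAR and the builds mm10 and GRCm38 come from the submitters' processing notes. Not given in the sources used here are the counting tool, the annotation, the use of strand and the treatment of multiply matching reads.

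Groups follow the genotype labels. Ratios carry exact conditional binomial (Clopper-Pearson) 95% intervals, and shares exact binomial ones. The floor for 0 reads is 3 reads. Depth was 8773820 reads in the knockout-labelled and 8410593 in the wildtype library, and the median interval of a measured member reached 0.27 on the log2 scale to each side. Shared 50-base stretches were counted in GENCODE M21 transcripts of GRCm38. The length and GC correction used the 8970 measured genes with a transcript (87.9%). Starts came from RefSeq promoters. The named genes are related pairs, stalk, ubiquitin fusion and Rpsa genes, Rps6, the 5 highest, 5 lowest and 5 most abundant members of each subunit, members at or under the minimum and leading list members; Rpl4, Rps15a, Rps16, Rps20, Rpl5, Rpl9, Rpl11, Rpl17, Rpl26 and the neighbours were chosen after their values were seen. A few genes under this rule are not reported here. Members and the 18 lists (206 of 223 entries in the table) were chosen with earlier results of these data known. The calculations were tested on simulated data. Python 3.11.15, numpy 2.4.6, pandas 2.3.3, scipy 1.17.1 and matplotlib 3.10.9 were used.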

Additional observations from a re-analysis of the deposited data

How the results depend on the processing

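Pseudocounts, minimums, rescalings, a length and GC correction and changes of membership were tried. The median over the members stayed between 0.30 and 0.52 and the small-subunit median above the large-subunit median throughout. On the scales of the median ratio, the trimmed mean and a total leaving out mitochondrial transcripts and the top 10 genes, and with the length and GC correction, members at least 1.5-fold higher numbered 11, 11, 9 and 8 and members at least 2-fold higher 0, 0, 0 and 0, against 18 and 1. The Rpl3l log2 ratio was 0.020, 0.018, -0.046 and -0.0068 on these scales, against 0.14, so it reversed on the last 2. The cause of the last was not tested. With a minimum of 1 RPM, 2 of 78 members were at least 1.5-fold lower, beside 1314 of 13437 genes. With no filter, 2 of 83 members were, beside 1457 of 31920 genes. Chosen after the data were seen, members under 50% shared gave 11 of 32 higher (12.8% of all genes) and members at 50 RPM or more 10 of 26 (14.8% of all genes at that level). The ribosomal protein share was 1.02% in the knockout-labelled and 0.778% in the wildtype library without mitochondrial transcripts, and 1.15% in the knockout-labelled and 0.877% in the wildtype library also without the top 10 genes. The Rpl3l share of the pair, per unshared position, was 95.2% in the knockout-labelled and 97.2% in the wildtype library. No paired analysis was possible because each group has 1 library, and for the same reason no replicate could be left out. Depth limits members near 5 RPM, such as Rpl7a with 49 reads in the knockout-labelled and 43 in the wildtype library.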

Other observations

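Rows that name ribosomal proteins outside the naming rule did not all follow the members. Rpl29, a large-subunit protein, has 3 rows by place. The row on chromosome 9 had 63 reads in the knockout-labelled and 64 in the wildtype library, a ratio of 0.944 (0.656 to 1.36). The row on chromosome 1 had 360 reads in the knockout-labelled and 112 in the wildtype library, a ratio of 3.08 (2.49 to 3.84), and it lies within Fhl2 on the opposite strand, which had 2709 reads in the knockout-labelled and 3745 reads in the wildtype library, a ratio of 0.693. The row on chromosome 5 had 0 reads in both.

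The pseudogene row Rplp2-ps1 had 708 reads in the knockout-labelled and 409 in the wildtype library, while Wdr89, which it overlaps on the same strand, had 720 reads in the knockout-labelled and 423 reads in the wildtype library. The pseudogene row Rps15a-ps6 had 50 reads in the knockout-labelled and 62 in the wildtype library, a ratio of 0.773 (0.522 to 1.14). Gnb2l1, now named Rack1, a scaffold protein of the small subunit, had 239 RPM in the knockout-labelled and 179 RPM in the wildtype library, a ratio of 1.33 (1.25 to 1.42).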
